A study of Rattus norvegicus with 10 samples.

Results

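Long unbroken stretches of sequenced genome were examined in the hippocampus of aged rats. Reduced representation bisulfite sequencing (RRBS) reads methylation at CpG dinucleotides in DNA cut by MspI, and the deposited table gives 1 methylation value, in percent, for each rat and each 1000 bp tile of the genome (build mRatBN7.2). A long run was defined as at least 8 tiles on chromosomes 1 to 20 whose starts follow each other by exactly 1000 bp. This rule uses positions only and no methylation value. It found 111 runs holding 1034 tiles, which is 0.607% of the 170420 autosomal tiles and part of a table of 176032 tiles. By contrast, 92712 autosomal tiles stood alone, with no tile directly before or after them.

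The rats came from 2 lines bred in opposite directions for intrinsic running capacity from the outbred N:NIH stock. High-capacity runners (HCR, n = 4) and low-capacity runners (LCR, n = 6) were females of generation 44, aged 23 to 24 months. Each rat was 1 sample. They had no running wheels, no structured exercise training and no treatment. By the paper, the animals also took part in treadmill testing of maximal oxygen uptake and in a water maze. The DNA came from whole hippocampus, a mixture of neurons, glia and vascular cells, so a change of level within a cell type and a change in cell proportions cannot be told apart. The lines were bred apart for these 44 generations and so also differ in genotype, and 2 further HCR samples that the authors removed at quality control were not analysed here. The table holds percentages without read counts, so the depth behind each value is unknown and no counting interval is given.

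MspI cuts at CCGG whatever the methylation of the inner CpG, and short fragments are kept for sequencing. Coverage is therefore densest where CCGG sites lie close together, as they do in CpG islands. CpG islands at promoters and around developmental genes are generally free of methylation in adult tissues, while most other CpGs in the mammalian genome, including those in gene bodies and repeats, are methylated. The zones beside an island, its shores, are where methylation levels change over short distances and where tissues often differ.

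As examples of the sequence RRBS cuts at genes named below, the 250 bases before the transcription start are given for 3 genes to which tiles of long runs were annotated. These are Ltbp4, whose run is among the longest, Inhbb, whose tile was lower in HCR than in LCR on average, and Zfp503. Capitals mark CCGG, the MspI site, which reads the same on both strands. The sequences are RefSeq's (GRCr8), read 5′ to 3′ on the strand given for the gene.
Ltbp4: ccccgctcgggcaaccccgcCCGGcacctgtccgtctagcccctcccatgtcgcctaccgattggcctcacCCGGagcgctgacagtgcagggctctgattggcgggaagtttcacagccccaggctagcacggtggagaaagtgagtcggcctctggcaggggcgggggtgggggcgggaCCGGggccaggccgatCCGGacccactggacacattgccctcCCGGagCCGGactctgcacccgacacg
Inhbb: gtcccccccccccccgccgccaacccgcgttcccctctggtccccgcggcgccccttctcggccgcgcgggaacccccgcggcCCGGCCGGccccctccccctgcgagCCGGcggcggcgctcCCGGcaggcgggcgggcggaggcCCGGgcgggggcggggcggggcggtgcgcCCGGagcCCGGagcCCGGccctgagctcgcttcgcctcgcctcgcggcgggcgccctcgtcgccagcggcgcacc
Zfp503: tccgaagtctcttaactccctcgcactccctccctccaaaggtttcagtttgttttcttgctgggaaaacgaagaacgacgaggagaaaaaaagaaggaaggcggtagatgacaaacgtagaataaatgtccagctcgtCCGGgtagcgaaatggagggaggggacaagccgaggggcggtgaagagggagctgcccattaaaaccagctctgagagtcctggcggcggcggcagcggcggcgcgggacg
There were 6 CCGG sites in the Ltbp4 promoter, 8 in that of Inhbb and 1 in that of Zfp503. Of 13 genes annotated to long-run tiles, 9 had a promoter of this length in the RefSeq set, and all 9 held CCGG, against 46.2% of 33469 rat promoters. At least 4 sites were present in 4 of the 9, against 8.42% of all promoters. The median number of CpG dinucleotides was 20 in the 9 promoters and 5 in all promoters, and the median GC content was 67.6% and 51.2%. The 9 genes were picked through long runs of tiles covered by RRBS, so more CCGG and CpG near them follows in part from this choice. No background of genes with covered tiles was computed, and enrichment was not tested. Whether these windows fall inside the runs was not analysed here, and a match to CCGG only describes the letters in this window.

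Most runs were only just long enough. There were 49 runs of 8 tiles, 25 of 9 tiles, 18 of 10 tiles and 9 of 11 tiles. Beyond these, 3 runs had 12 tiles, 2 had 13, 3 had 14, and 1 run each had 15 and 19 tiles. The runs were spread unevenly over the genome. Chromosome 10 held 17 runs with 160 tiles, 1.33% of its tiles, and the shares of chromosomes 12 and 20 were 1.27% and 1.26%. Chromosome 1 held 15 runs and chromosome 3 held 12, while chromosomes 4, 13 and 18 held 1 run each. The lowest share was on chromosome 4, where 0.121% of tiles lay in a long run.

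Tiles of long runs were much less methylated than the rest of the autosomes in every rat. Over the 942 long-run tiles with a value in all 10 rats, the mean level was 17.3%, 18.5%, 17.3% and 19.8% in the HCR rats, and it ranged from 16.3% to 19.1% in the LCR rats. The line means were 18.2% ± 1.18 in HCR (SD, n = 4) and 17.3% ± 1.12 in LCR (SD, n = 6). The other autosomal tiles averaged 48.1% ± 2.43 in HCR and 46.2% ± 2.33 in LCR. Within a rat, long-run tiles were lower by 27.3 to 31.2 points, in 10 of 10 rats (exact sign-flip test over rats, 2-sided, p = 0.00195, the smallest that 10 rats allow). This gap was -29.9 ± 1.29 points in HCR and -28.9 ± 1.24 points in LCR, and the lines did not differ detectably in it (difference -1.01, exact permutation test, 2-sided, p = 0.243; the smallest p that 4 against 6 rats allow is 0.00476). Since the same loci were read in every rat, the sign-flip p measures agreement among rats and not spread among runs.

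Between classes of run length, the mean level was lower in each longer class. Isolated tiles averaged 59.4% in HCR and 57.1% in LCR. Tiles in runs of 2 to 3 averaged 38.2% and tiles in runs of 4 to 7 averaged 27.4% in HCR, against 36.6% and 26.2% in LCR. The medians over tiles were 5.41% in long runs, 9.26% in runs of 4 to 7, 24.98% in runs of 2 to 3 and 67.4% in isolated tiles. In long runs 47.6% of tiles were below 5% methylation, against 7.76% of isolated tiles. A further 27.3% of long-run tiles lay between 5% and 20%, 18.05% between 20% and 80%, 5.84% between 80% and 95%, and 1.27% at 95% or above. By single lengths, runs of 6 tiles averaged 25.5% ± 1.75 in HCR and 24.3% ± 1.74 in LCR. The 115 runs of 7 tiles averaged 21.5% ± 1.55 and 20.1% ± 1.57, and the 49 runs of 8 tiles 21.6% ± 1.60 and 20.6% ± 1.32. Runs of 9 tiles averaged 20.7% ± 1.32 and 19.7% ± 1.11. The gap to other tiles was -24.6 points for runs of at least 12 tiles, against -29.3 points for all long runs. The longest run, at 94.3% in HCR and 93.4% in LCR, holds 19 of these 138 tiles. The gap for runs of at least 12 tiles without it was not computed, so whether the order goes on among longer runs is not shown.

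**Figure D1:**
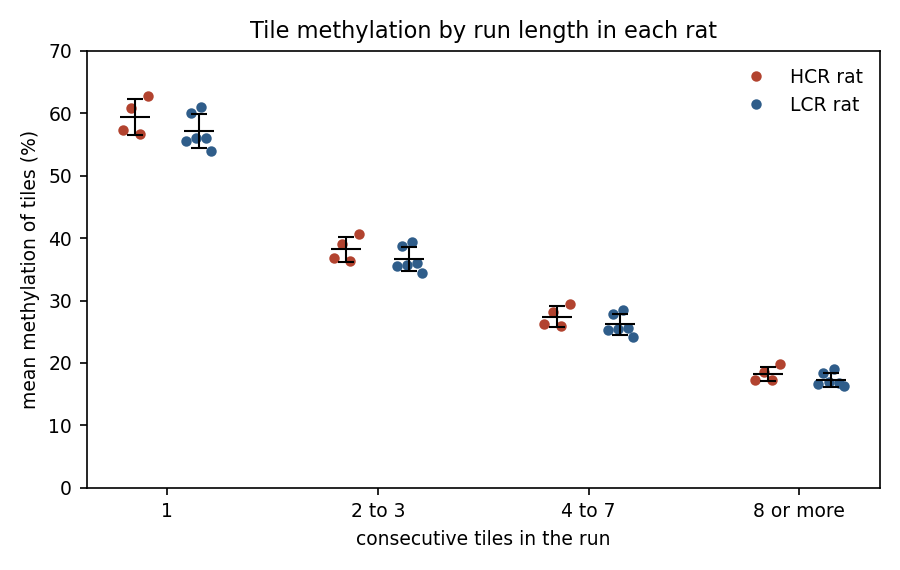
Mean methylation (%) of autosomal tiles with a value in every rat, by the number of consecutive tiles in their run. Points are rats (HCR left, LCR right), and bars are line means ± SD. Rats lie at 54.0 to 62.8% for isolated tiles and at 16.3 to 19.8% for runs of 8 or more, and the lines overlap at each length.

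Values were also more complete in long runs and, taken over all tiles, closer among rats. A value was present in all 10 rats for 91.1% of long-run tiles, against 66.5% of isolated tiles. By the paper, a tile was kept only with values in at least 3 rats of each line. A long run needs at least 8 such tiles in succession, so its completeness follows in part from how runs were defined. Single rats lacked a value for 0.895% ± 0.254 of long-run tiles in HCR and 1.93% ± 1.14 in LCR (exact permutation p = 0.138), and for 3.88% ± 2.22 of other tiles in HCR and 6.52% ± 2.95 in LCR. The median SD within a line was 1.52 points in long runs and 6.66 points for isolated tiles. By level, the median SD was 2.51 points in long runs and 5.25 points when isolated for tiles between 5% and 20%, and 8.45 and 10.2 points for tiles between 20% and 80%. Under 5% it was not smaller in long runs (0.648 points, against 0.579 points for isolated tiles). Neighbouring tiles of a long run differed by a median of 3.69 points (923 pairs, r = 0.768 across pairs, which share libraries and are not independent), against 7.70 points for neighbours in runs of 2 to 3 (r = 0.765).

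Averaged over long runs, centre tiles were less methylated than edge tiles. The first and last tiles formed the edge (190 complete tiles from 111 runs), and tiles at least 5 places from the nearer end formed the centre (142 complete tiles from 61 runs). Centre tiles averaged 15.6% ± 0.803 in HCR and 14.8% ± 0.927 in LCR, and edge tiles 21.7% ± 1.503 in HCR and 20.7% ± 1.36 in LCR. The centre was lower in 10 of 10 rats, by -6.10 ± 0.711 points in HCR and -5.86 ± 0.636 points in LCR (exact sign-flip test, p = 0.00195). All rats share these loci, so the test measures agreement among rats and not spread among runs. How many runs had a lower centre was not counted. The step from edge to centre did not differ detectably between the lines (difference -0.240, exact permutation p = 0.581). The longest run, which was methylated throughout, supplied many of the most central tiles. Without it the step from edge to centre was -11.1 ± 0.746 points in HCR and -10.9 ± 0.609 points in LCR. When centre and edge were first averaged within each run that had both, the step was -8.70 ± 0.792 points in HCR and -8.23 ± 0.727 points in LCR.

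Tile by tile, the median fell mainly from the outermost tile to the second. The median over tiles was 10.9% at the first position, 5.02% at the second, 5.08% at the third, 4.80% at the fourth and 4.06% at the fifth. The means stayed level from the second tile (17.7% in HCR, 16.7% in LCR) to the fourth (18.1% in HCR, 17.4% in LCR) and were 11.9% in HCR and 11.2% in LCR at the fifth. Positions from the fifth inward exist only in runs of 9 tiles or more, so these means come from fewer and longer runs (61 runs at the fifth tile, 109 at the fourth). The lower mean at the fifth tile therefore compares different sets of runs. A tile-by-tile profile over the same runs was not computed. Of 12 tiles at the seventh position, 2 belonged to the longest run, and their removal brought the mean to 4.89% in HCR and 4.46% in LCR, against 20.1% and 19.4% with them.

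Beyond the edge, methylation was higher. Each run has a nearest tile on either side, after a gap of at least 1 missing tile, and 150 of the 222 such flanking tiles had a value in every rat. They averaged 35.8% ± 3.47 in HCR and 33.8% ± 1.96 in LCR, against 19.95% ± 1.61 in HCR and 18.99% ± 1.43 in LCR for the edge tiles beside them. The flanking tile was higher than its edge at 104 of 150 flanks, and it was higher by more than 50 points at 22. Flanks that began 2 kb from the edge averaged 22.9% in HCR and 21.2% in LCR, close to the edge itself. At 3 to 5 kb the means were 37.8% and 36.0%, and at 6 to 10 kb they were 45.8% and 42.4%, in HCR and in LCR, near the level of other autosomal tiles.

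**Figure D2:**
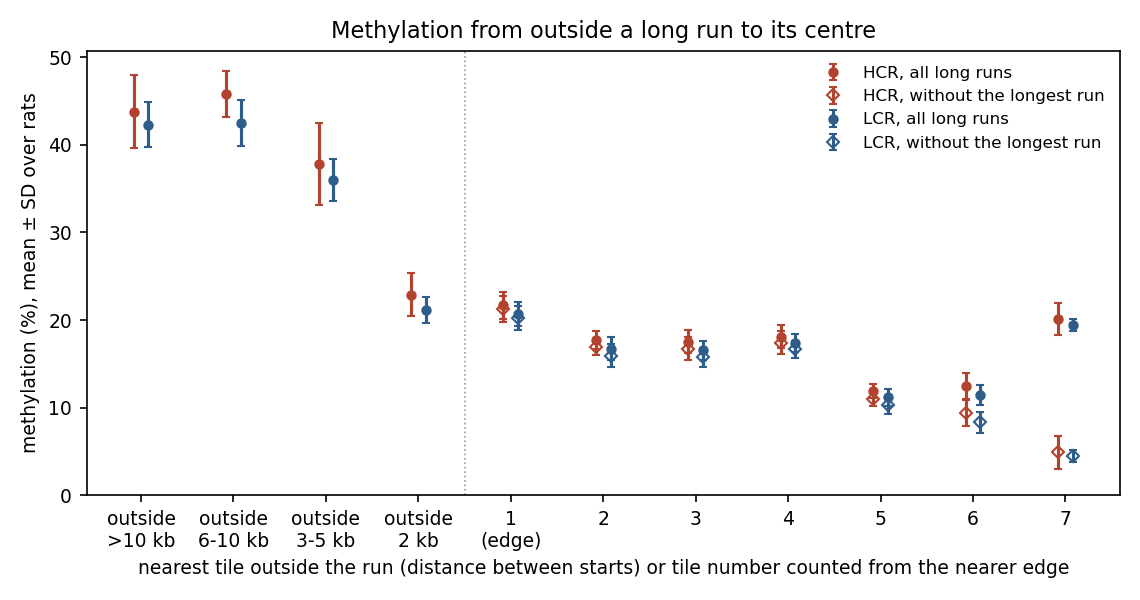
Methylation (%, mean ± SD over rats) of the nearest tile outside a long run, by distance, and of tiles inside it, counted from the nearer edge. Filled points are all long runs and open points leave out the longest one. Levels go from 45.8% in HCR and 42.4% in LCR at 6 to 10 kb outside to 21.7% and 20.7% at the edge and 11.9% and 11.2% at the fifth tile.

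Low levels described most runs but not all of each run. The mean over a run had a median of 10.1% and lay between 1.75% and 95.1%. It was under 10% in 55 runs, under 20% in 82 and at 50% or more in 12. Even so, only 29 runs stayed under 20% in every tile, and 1 run stayed under 5%. A tile at 50% or more occurred in 42 runs and a tile at 80% or more in 22, while 96 runs had a tile under 5%. In 25 runs, 2 neighbouring tiles differed by at least 50 points.

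The longest run was of the opposite kind. It spanned 19 tiles at chr20:44760001-44779000 and was methylated from end to end. Its mean was 94.4%, 94.5%, 93.9% and 94.3% in the HCR rats, and in the LCR rats the lowest was 92.5%, the median 93.4% and the highest 94.4%. The line means were 94.3% ± 0.281 in HCR and 93.4% ± 0.678 in LCR, a difference of 0.854 points (limma SE 1.24, adjusted p = 0.922). The first tile was the lowest, at 86.1% ± 7.64 in HCR and 79.6% ± 4.19 in LCR, and the other 18 averaged 89.6% to 97.0% over all rats. HCR was the higher line in 13 of its 19 tiles. No gene was annotated to this run in the sources used here. High levels throughout were otherwise found in the 8 tiles of chr6:1508001-1516000, at 95.4% ± 0.436 in HCR and 94.5% ± 2.52 in LCR. The 9 tiles of chr1:39679001-39688000 averaged 89.1% ± 2.06 in HCR and 88.2% ± 1.72 in LCR, with a second tile at 60.6% in HCR and 66.9% in LCR. The 8 tiles of chr9:113827001-113835000 averaged 87.1% ± 2.49 in HCR and 84.8% ± 1.04 in LCR.

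The next runs by length were mosaics or nearly unmethylated. At chr10:86099001-86114000 (15 tiles), the methylated left part peaked at the third tile in LCR (82.0%, against 81.7% in HCR) and 1 tile further in HCR (86.5%). The 5 tiles from the seventh to the eleventh were at 1.1% to 1.9% in HCR and 1.4% to 2.1% in LCR, and the twelfth was again at 67.7% in HCR and 63.5% in LCR. Its mean was 31.8% ± 2.28 in HCR and 29.1% ± 1.37 in LCR. The 14 tiles of chr1:82619001-82633000, in and around Ltbp4, began near 50% (52.2% in HCR, 60.1% in LCR at the first tile) and dropped to 1.6% in HCR and 1.5% in LCR at the seventh. At chr3:22121001-22135000 (14 tiles) the mean was 8.35% ± 1.89 in HCR and 9.45% ± 2.60 in LCR, 1 of 21 runs in which HCR was the lower line. At chr12:11747001-11761000 (14 tiles) only the first 2 tiles and the last exceeded 5%, and the 9 tiles from the fifth to the thirteenth were at 0.8% to 1.9% in HCR and 0.9% to 1.7% in LCR.

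Among runs of 12 and 13 tiles, chr8:100415001-100428000 had methylated tiles at both ends (65.5% at the first in HCR, 65.3% in LCR) around 10 tiles under 11% in both lines. Every tile of chr12:15085001-15098000 stayed under 10%, with a mean of 5.39% ± 0.263 in HCR and 4.82% ± 0.413 in LCR. The 12 tiles of chr12:33420001-33432000 averaged 3.07% ± 0.538 in HCR and 2.81% ± 0.371 in LCR. At chr4:81316001-81328000 a single tile, the eighth, stood out at 33.4% in HCR and 32.2% in LCR within a run averaging 8.62% ± 0.621 in HCR and 8.32% ± 1.02 in LCR. The lowest run of all was chr10:105518001-105528000, whose 10 tiles averaged 1.92% ± 0.852 in HCR and 1.63% ± 0.430 in LCR.

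**Figure D3:**
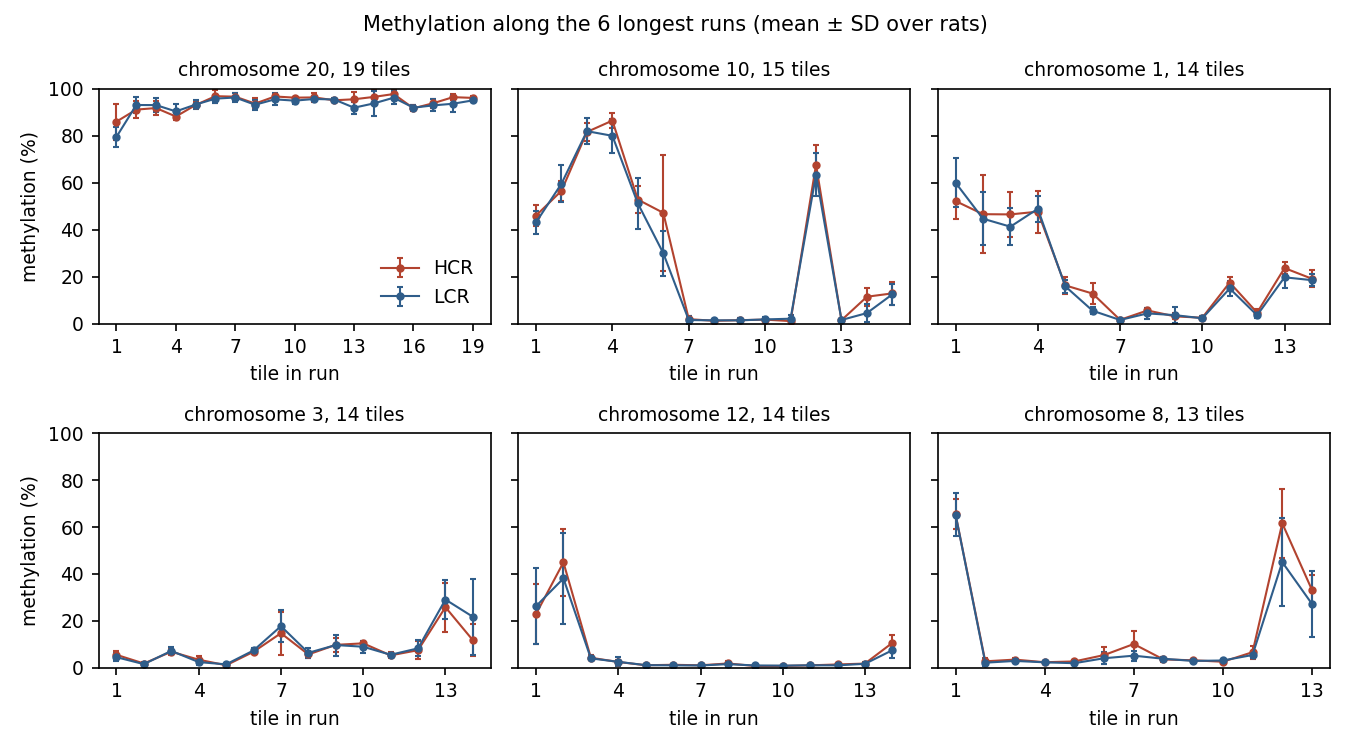
Methylation (%) of each tile along the 6 longest runs, from the lowest to the highest coordinate, as line means ± SD over HCR (n = 4) and LCR (n = 6). The run of 19 tiles stays near 94.3% in HCR and 93.4% in LCR, the run on chromosome 3 stays at or below 29.1% in both lines, and the other 4 runs hold both high and low tiles.

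Few long runs could be tied to a gene. The study's annotation, of which the entries read here are for tiles it had called different on these same rats, named a gene for 13 long-run tiles in 13 runs, so the genes below are not independent evidence of a difference. Of 9 lists with 387 genes in all (Hox clusters, clustered protocadherins, imprinted genes, other developmental transcription factors, long CpG-rich chromatin genes, matrix genes, channels, synaptic genes and ERK, AKT and TNF signalling), only Lama5 had such a tile. The annotation was not read in full here and covers called tiles only, so a gene without such a tile may still lie in a run. By the order of genes in GRCr8, 10 runs lay between annotated tiles with 6 genes or fewer between them, a limit chosen after the data were seen. A run averaging 5.69% ± 0.485 in HCR and 5.21% ± 1.09 in LCR at chr9:90510001-90518000 lay between tiles of Agap1 and Asb18, an interval that holds Gbx2, a homeobox gene of hindbrain patterning. Another at chr12:7878001-7886000 (6.81% ± 1.21 in HCR, 5.84% ± 0.629 in LCR) lay between Flt3 and Polr1d, with the homeobox genes Cdx2, Pdx1 and Gsx1 in the interval. Low levels were not particular to these intervals. The run at chr8:63603001-63611000 between Cln6 and Map2k5 was lower still (2.54% ± 0.358 in HCR, 2.33% ± 0.197 in LCR). Others of the 10 were more methylated, such as chr1:257241001-257249000 between Ablim1 and Gfra1 (65.5% ± 10.8 in HCR, 61.3% ± 6.59 in LCR) and chr15:2454001-2462000 between Zfp503 and Vdac2 (32.6% ± 6.15 in HCR, 31.3% ± 2.49 in LCR). The bracketing tiles lay 15 to 997 kb from the runs, so none of these genes is placed in a run.

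Between the lines, the difference in mean methylation of long runs was small. The difference in mean level, 0.905 points (HCR minus LCR), was within the spread among rats (exact permutation test, 2-sided, p = 0.233), as was that of the other autosomal tiles (1.92 points, p = 0.224). As a median over tiles the long-run difference was 0.568 points with p = 0.0429 by the same exact test, and without HCR rat 19 the difference in mean was 0.388 points (p = 0.583). HCR rat 19 was the highest and LCR rat 30 the lowest for both kinds of tile. The median difference per tile was 0.31 points in long runs and 1.01 points over all tested tiles. A difference of at least 5 points was found in 12.97% of long-run tiles, against 33.6% of all tiles, and one of at least 10 points in 3.001%, against 13.2%. Tiles with low levels can differ less on this scale.

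HCR was the higher line in 90 of 111 long runs (81.1%, against a background of 66.2% of all 125128 runs, single tiles included) and in 65.6% of long-run tiles (background 64.7%). Setting the mean of each rat equal takes the same 1.91 points off the difference of every run with a value in all rats, which is more than the median difference of long runs as deposited (0.87 points). After this shift HCR was higher in 26 of 111 long runs (23.4%) and in 46.0% of all runs, and the median difference over all runs was -0.50 points, against 1.41 points as deposited. Without HCR rat 19 it was higher in 76 of 111.

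**Figure D4:**
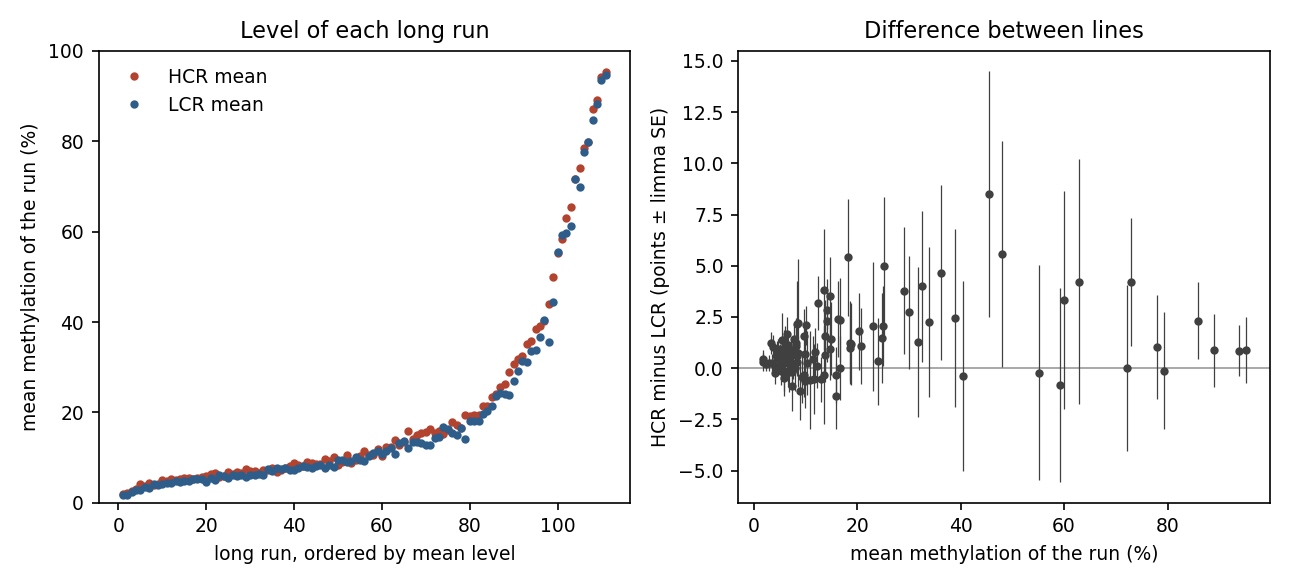
Left, mean methylation (%) of each of the 111 long runs in HCR and LCR, ordered by level. Right, the difference HCR minus LCR in points (± limma SE) against the level. The differences run from -1.35 to 8.50 points, and HCR is higher in 90 runs.

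By limma with Benjamini-Hochberg adjustment over all runs, 0 of 111 long runs passed an adjusted p of 0.1 with at least 5 points (background 0.0991%). At an unadjusted p under 0.05, 4 long runs were higher in HCR (background 5.95%) and 0 were lower (background 1.41%). The run with the smallest p was chr8:100415001-100428000. It had 15.1%, 16.6%, 14.97% and 15.9% in the HCR rats and, in the LCR rats, a lowest of 12.0%, a median of 12.5% and a highest of 14.8%. The lines did not overlap there (difference 2.85 points, SE 0.952, adjusted p = 0.535), as in 1 of the 111 long runs (0.901%, background 1.58%), and in 0 was every HCR rat below every LCR rat (background 0.346%). These means take the tiles each rat has, and LCR rat 18 lacked the twelfth tile, at 61.6% in HCR and 45.1% in LCR. Over complete tiles the HCR rats had 9.92%, 12.4%, 11.2% and 13.7%, and the LCR rats had a lowest of 8.33%, a median of 10.9% and a highest of 12.5%, so that the lines overlapped and differed by 1.25 points. Over complete tiles every HCR rat was above every LCR rat in 1 of 110 long runs, and below in 0. This was chr11:76853001-76862000, nearly unmethylated at 2.29% ± 0.331 in HCR and 1.54% ± 0.232 in LCR. With its incomplete tiles the lines overlapped there (1.42% to 2.55% in HCR, 1.19% to 2.85% in LCR, adjusted p = 0.867 by limma). The share over all runs was not computed for complete tiles. After chr8:100415001-100428000, the 5 runs next in p overlapped between the lines. At chr19:49152001-49162000 the HCR rats had 14.03%, 14.7%, 11.8% and 15.2%, and the LCR rats had a lowest of 7.30%, a median of 10.7% and a highest of 13.98% (difference 3.18, SE 1.30, adjusted p = 0.638). LCR rat 12 lacked the tile that peaked in this run, at 65.9% in HCR and 52.1% in LCR, and over complete tiles the difference was 1.17 points. The run at chr19:15206001-15218000, 1 of the 10 longest, averaged 11.4% ± 1.31 in HCR and 9.29% ± 1.39 in LCR (adjusted p = 0.685). At chr17:8793001-8801000 the means were 7.43% ± 1.47 in HCR and 5.75% ± 1.04 in LCR (adjusted p = 0.701), with the last tile at 32.7% in HCR and 19.5% in LCR. At chr10:104308001-104316000 the means were 4.10% ± 1.19 in HCR and 2.85% ± 0.359 in LCR (adjusted p = 0.663), and the third tile was at 0%, 11.9% and 14.8% in 3 HCR rats and at 0% in all 5 LCR rats with a value. Without this incomplete tile the difference in the run mean was 0.449 points, against 1.25 points with it. The fifth of these runs lies by Nr4a3 and is described with its first tile. The largest difference of a run was 8.50 points at chr2:173833001-173841000, with 44.0% ± 9.94 in HCR and 35.5% ± 7.10 in LCR (SE 5.998, adjusted p = 0.816).

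Tile by tile, 1 of 1033 tested long-run tiles (0.0968%) passed the same limits, against 0.0858% of 176004 tiles, a share near the background. It was higher in HCR (background in this direction 0.058%), and 0 were lower (0.0278%). At an unadjusted p under 0.05, 65 tiles were higher in HCR (6.29%, background 5.74%) and 5 were lower (0.484%, background 1.44%). The called tile at chr10:87740001-87741000 lies in an exon and CpG island of Adam11, which encodes a catalytically inactive member of the ADAM family found mainly in brain, and is the last tile of an 8-tile run. It had 16.7%, 11.8%, 15.3% and 19.4% in the HCR rats and, in the LCR rats, a lowest of 5.65%, a median of 6.89% and a highest of 9.05%. Every HCR rat was above every LCR rat. The difference was 8.74 points (SE 1.34, adjusted p = 0.0757 by limma). Its call was lost when any rat but HCR rat 11 was left out (adjusted p 0.125 to 0.186), on the logit scale (adjusted p = 0.317), with a filter on SD (0.342), without the variance trend (0.112) and with equal rat means (6.83 points, adjusted p = 0.662).

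At an unadjusted p under 0.005 with at least 5 points, 5 long-run tiles were higher in HCR (0.484%, background 0.782%) and 0 were lower (background 0.25%). Besides Adam11 they included an exon and CpG island tile of Ltbp4, a binding protein of latent TGF-β in the matrix, at chr1:82624001-82625000. It had 13.1%, 11.3%, 18.8% and 7.91% in the HCR rats and, in the LCR rats, a lowest of 3.76%, a median of 5.12% and a highest of 7.64%, without overlap (difference 7.32, SE 1.75, adjusted p = 0.329). This tile sits on the slope of the run, where methylation drops from its left part into the unmethylated middle. An intronic tile of Anks1a, an adaptor of Eph receptors, at chr20:6097001-6098000 had 12.8%, 7.31%, 12.96% and 15.6% in the HCR rats and a lowest of 4.38%, a median of 5.17% and a highest of 7.90% in the LCR rats. Here the lowest HCR rat fell within the LCR range (difference 6.46, SE 1.44, adjusted p = 0.284).

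The first tile of the run at chr5:62358001-62366000 lies upstream of Nr4a3, an activity-regulated orphan nuclear receptor. It had 29.97%, 22.2%, 22.7% and 18.03% in the HCR rats, against 12.6%, 10.2%, 12.6% and 8.85% in the 4 LCR rats with a value (difference 12.2, SE 2.62, adjusted p = 0.308). The lines did not overlap. The next 5 tiles were at 0.9% to 1.1% in HCR and 0.9% to 1.4% in LCR. The mean of this run, 6.50% ± 0.609 in HCR and 5.15% ± 0.592 in LCR, differed by 1.36 points, but by -0.28 points once the first tile and any other incomplete one were left out. The fifth tile of this group, at chr8:70411001-70412000, had a value in 3 rats of each line, at 9.52%, 8.76% and 5.64% in HCR and 2.15%, 2.37% and 3.41% in LCR (adjusted p = 0.356).

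The other 9 annotated tiles did not pass the test either. Of these, 8 had a higher mean in HCR. Among secreted factors, an intronic tile of Bmp7, a bone morphogenetic protein, at chr3:161714001-161715000 had 16.2%, 35.6%, 61.8% and 48.7% in the HCR rats and a lowest of 6.82%, a median of 14.4% and a highest of 29.9% in the LCR rats, overlapping at 1 HCR rat (adjusted p = 0.578). An intronic tile of Inhbb, the activin beta B subunit, at chr13:30534001-30535000 was the only one with a lower mean in HCR, at 28.0%, 21.8%, 14.5% and 20.7% in the HCR rats, against a lowest of 24.8%, a median of 30.8% and a highest of 34.3% in the LCR rats (difference -9.02, SE 3.48, adjusted p = 0.627). For Pdgfb, a platelet-derived growth factor chain, the intronic tile at chr7:111552001-111553000 averaged 34.3% ± 7.28 in HCR and 24.2% ± 2.85 in LCR (adjusted p = 0.635).

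Upstream of transcription factor genes, the tile of Foxj1, a regulator of motile cilia, at chr10:101572001-101573000 had 41.6%, 42.2%, 55.7% and 46.8% in the HCR rats and a lowest of 31.5%, a median of 36.3% and a highest of 41.3% in the LCR rats, without overlap (adjusted p = 0.759). The tile of Zfp503, a zinc finger repressor, at chr15:2309001-2310000 averaged 40.4% ± 5.94 in HCR and 30.7% ± 3.06 in LCR (adjusted p = 0.717). Among exons, the tile of Slc37a1, a glucose-6-phosphate transporter, at chr20:9402001-9403000 had 80.9%, 50%, 71.2% and 68.6% in the HCR rats and a lowest of 30.1%, a median of 45.0% and a highest of 57.3% in the LCR rats (adjusted p = 0.572). The CpG island tile of Cnp, a myelin enzyme of oligodendrocytes, at chr10:85512001-85513000 averaged 12.6% ± 3.44 in HCR and 7.48% ± 2.01 in LCR (adjusted p = 0.498). Tiles of Midn, a nuclear protein, and of Lama5, a laminin chain, averaged 11.7% ± 10.96 and 80.8% ± 2.38 in HCR and 3.73% ± 3.66 (n = 5) and 76.3% ± 2.36 (n = 4) in LCR.

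**Figure D5:**
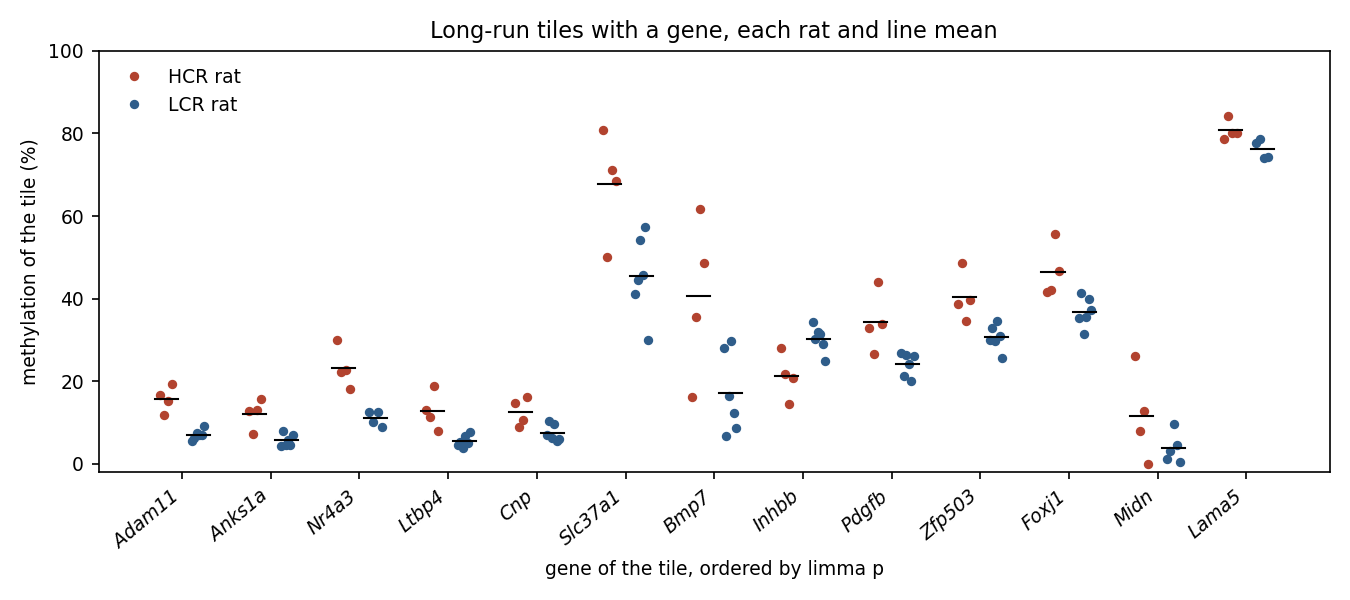
Methylation (%) of the 13 long-run tiles with an annotated gene in each rat (HCR left, LCR right), with line means as bars, ordered by limma p. HCR has the higher mean in all but Inhbb, and only the Adam11 tile passed the test across all tiles (15.8% in HCR, 7.04% in LCR).

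Without regard to a test, every HCR rat was above every LCR rat in 19 of 942 complete long-run tiles (2.02%, background 1.53%), and below in 0 (background 0.367%). The widest gaps, chosen for their size, were at chr16:77136001-77137000, with 47.9%, 21.4%, 22.8% and 56.3% in the HCR rats and 0%, 15.8%, 18.2%, 11.4% and 12.7% in the 5 LCR rats with a value (difference 25.4, adjusted p = 0.494), and, in the other direction, at chr20:8814001-8815000, with 4.89%, 14.4%, 4.18% and 29.1% in the HCR rats and a lowest of 17.8%, a median of 25.1% and a highest of 39.9% in the LCR rats (difference -14.0, adjusted p = 0.649).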

How the data were processed

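The authors made RRBS libraries with the Premium RRBS Kit V2, trimmed reads with Trim Galore 0.6.10, aligned them to mRatBN7.2 with Bismark and Bowtie2, and used methylKit to keep CpGs of at least 5× coverage and below the 99.9th percentile, in 1000 bp tiles with at least 3 covered CpGs. In the deposited table each tile has a percent methylation for each rat, with empty cells for missing values. Coverage was not analysed here, so the authors' test on counts was replaced by limma 3.58.1 (R 4.3.3, trended variance) on the percentages, fitted on the whole table with at least 3 rats per line. The 28 tiles with the same value in every rat were left out, and p-values were adjusted over all 176004 tiles. Calls needed an adjusted p below 0.1 and 5 points. Means over tiles were compared by exact permutation (210 splits) between lines and exact sign flips (1024) within rats (NumPy 2.4.6). Which libraries shared a bisulfite pool is not given in the sources used here, and the authors state no separate batch. The fits were tested on simulated data. The members, gene lists and tests were chosen with earlier results of these data known. Gene names came from the study's tile annotation (1999 and 662 entries read) and gene order and promoters from RefSeq (GRCr8), whose coordinates were not used. Named were the 10 longest runs, the 6 of smallest p, the lowest and highest of the 50 longest, and called tiles; tiles with a gene, runs beside few genes, other methylated runs and the widest gaps were added after their values were seen.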

Additional observations from a re-analysis of the deposited data

Results flagged for a closer look

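In 61 groups of rats tested for a value far from the others, 4 values stood apart, and chance alone gives about 1 in 20. HCR rat 15 had the highest mean of the HCR rats in the run at chr12:15085001-15098000, at 5.78% against 5.23% to 5.31%. HCR rat 11 had the lowest in the run at chr4:81316001-81328000, at 7.69% against 8.89% to 8.97%. LCR rat 24 had the highest mean of the LCR rats in the run at chr10:86099001-86114000, at 31.7% against 27.7% to 28.9%, and in the run at chr8:100415001-100428000, at 14.8% against 12.0% to 12.7%.

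Of 4 runs outside chromosomes 1 to 20, 2 on chromosome X were higher in every HCR rat than in every LCR rat (1.58% of autosomal runs with a mean in every rat), and the other 2 overlapped. The 10 tiles at chrX:405001-415000 averaged 79.2% in HCR and 65.2% to 72.1% in the single LCR rats. The 15 tiles at chrX:589001-604000 averaged 75.1% in HCR and 62.8% to 67.9% in the single LCR rats. Both were found by looking through runs outside the comparison and were not tested as runs.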

How the results depend on the processing

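The gap between long-run and other tiles (-40.3 to -23.8 points) and the step from edge to centre (-11.0 to -3.04 points) kept their sign and call in all alternatives run. The difference in mean level between HCR and LCR was 0.568 points as a median over tiles (exact permutation p = 0.0429), -1.01 with the mean of each rat set equal (p = 0.243), and 0.388 to 1.29 when single rats were left out. The number of long-run tiles called by limma was 0 on the logit scale, with a filter on SD, without the trend, with equal rat means, in runs of at least 12 tiles and under stricter limits (adjusted p 0.05, 10 points), and 0 to 2 when single rats were left out; it was 2 without HCR rat 11, when the Anks1a tile also passed (adjusted p = 0.0786). Where every rat has a value, equal rat means take 1.91 points off the difference by construction. Over all tested runs the shift lay between -0.66 and 4.29 points. It left -0.55 points in the run at chr5:62358001 (-0.28 as deposited over complete tiles), -0.66 at chr10:104308001 and -0.23 at chr17:8793001. Run means gave 0 calls in each of 14 alternatives, and leaving out the longest run was added after seeing the data. HCR and LCR rats are separate animals with no pairing given in the sources used here, so no paired analysis was run. Depth is unknown, so no counting error can be given.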

Other observations

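Runs of at least 8 tiles also occurred outside chromosomes 1 to 20. In the run at chrX:405001-415000 the HCR rats had 75.6%, 81.9%, 78.7% and 80.7%, against a mean of 69.3% ± 2.53 in the LCR rats (SD, n = 6), and HCR was the higher line in 10 of 10 tiles. In the run at chrX:589001-604000 the HCR rats had 71.3%, 75.8%, 76.0% and 77.1%, against 65.9% ± 1.93 in the LCR rats, and HCR was higher in 15 of 15 tiles. The differences were 9.91 and 9.11 points, and 0 of these tiles passed the limits in the limma fit, where the lowest adjusted p was 0.284 and 0.432. Tiles of a run share libraries and are not independent, and HCR was the higher line in 64.7% of all tested tiles. At chrX:53013001-53021000 (8 tiles) the lines were at 92.4% ± 1.19 in HCR and 92.4% ± 1.24 in LCR. A run of 9 tiles on an unplaced scaffold was at 73.3% ± 4.42 in HCR and 73.5% ± 2.31 in LCR.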
